A study of Mus musculus with 7 samples.

Results

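The 38 genes described here run the cell division cycle: 3 cyclins of G1, 13 genes of S phase and 22 genes of G2 and mitosis, the last 2 classes being kept apart throughout. They were listed by name for these roles, and each was found through the gene name that the array design gives its probes, among 31093 gene names on the array. They were measured in brain tissue of male mice of the C57BL/6N background. 3 arrays were labelled Pla2g2e -/- on day 3 after transient occlusion of the middle cerebral artery for 60 min, 3 were labelled wild type on day 3 after the same occlusion, and 1 was labelled wild type sham. The occlusion is a stroke model in which the artery feeding most of one hemisphere is blocked and then reopened, and Pla2g2e encodes a secreted phospholipase that cleaves membrane phospholipids. The comparison named by the study is that of the knockout with the wild type brain on day 3. All samples were of 1 background and sex, and the treatment field of the sham sample repeats the 60 min occlusion. Which exons were deleted, the age of the mice, the part of the brain taken and whether the arrays stand for separate animals are not given in the sources used here. The p-values can therefore speak only of how these samples vary, and part of that variation may be technical.

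Cells enter the cycle when D-type and E-type cyclins with their kinases inactivate the retinoblastoma proteins and release E2F, which switches on the genes of DNA replication. Cdc6 and the Mcm helicase are loaded on origins in G1, Cdc45 joins the helicase when origins fire, and Pcna, ribonucleotide reductase, thymidylate synthase and thymidine kinase supply the clamp and the nucleotides for S phase. Later, B-Myb and FoxM1 with the MuvB complex switch on the mitotic genes, many of which carry a CHR element together with CCAAT boxes in the promoter. In resting cells MuvB sits in the DREAM complex and keeps these genes off. The adult brain divides little. After a stroke, microglia, infiltrating myeloid cells, endothelial cells, reactive astrocytes and progenitor cells are known to divide around the lesion. In bulk tissue, fewer cells of a type and less RNA per cell cannot be told apart.

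The values below are log2 processed signal of the brightest probe of a gene minus the 75th percentile of the array, so 0 is the signal below which 75% of the spots lie, and a difference of 1 is 2-fold. Levels are compared between arrays, never between genes. Per array, 72.5% to 79.1% of 43020 spots were well above background and none was saturated. Precision is limited by how few arrays there are. Of the 38 genes, 36 exceeded background clearly in 3 or more of the 7 arrays and were tested: 2 G1 cyclins, all 13 S phase genes and 21 G2/M genes. The filter left out Aurkb, the kinase of the chromosomal passenger complex, which was well above background on the sham array only, and Ccne2, an E-type cyclin. Ccne2 read -9.11, -5.81 and -9.38 on the knockout arrays, -9.96, -7.16 and -8.86 on the wild type day 3 arrays and -7.44 on the sham array, and was well above background on knockout replicate 2 only.

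Of the 7 arrays, 1 stood apart from the rest, and the array labelled sham was at the level of the other day 3 arrays in genes that mark injured tissue. The array labelled wild type day 3 replicate 1 had correlations of 0.857 to 0.916 with the other arrays over all features. The range among the other 6 arrays is not given here, so these values alone do not set it apart. On wild type day 3 replicate 1, the 3 injury genes (Spp1, Lgals3 and Gpnmb) had a median of -3.17, against 4.84 to 5.65 on the other 6 arrays, the sham array at 5.33 included. With all 6 day 3 arrays, neither probe of the targeted gene separated the genotypes. The brighter probe of Pla2g2e read -4.44, -5.83 and -4.97 on the knockout arrays, -6.89, -3.68 and -3.36 on the wild type day 3 arrays and -4.69 on the sham array. The dimmer probe of Pla2g2e read -7.94, -8.44 and -7.84 on the knockout arrays, -9.00, -6.72 and -6.50 on the wild type day 3 arrays and -6.83 on the sham array, and no knockout array was well above background for it. Without wild type day 3 replicate 1, both probes had all 3 knockout arrays below the other 2 wild type arrays. Whether either probe lies in the deleted part is not given, and a probe outside it checks nothing. Slide 1 held the wild type day 3 and sham arrays and slide 2 the knockout arrays, so genotype and slide cannot be told apart. The main comparisons that rest on the array labelled wild type day 3 replicate 1 are therefore given with and without it.

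**Figure D1:**
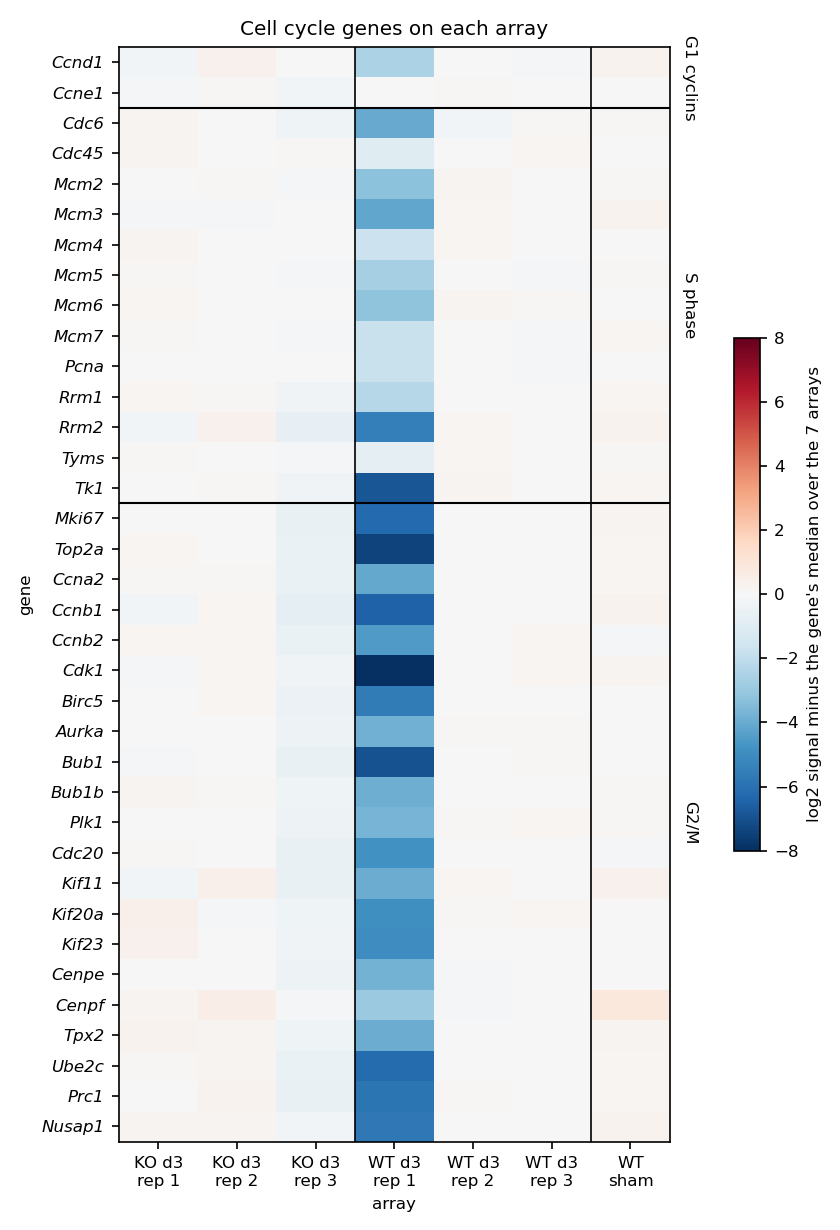
Each row is 1 of the 36 measured genes, each column 1 array, and the colour is the log2 signal minus the median of that gene over the 7 arrays (blue lower, red higher). The column of wild type day 3 replicate 1 is on the blue side in all 13 S phase and all 21 G2/M genes, though pale for Tyms and Cdc45. The other 6 columns are pale.

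The largest differences between arrays in these genes came from 1 array. On the array labelled wild type day 3 replicate 1, all 13 S phase genes and all 21 G2/M genes were below their level on each of the other 6 arrays, as were 34.4% of all features. The gap to the lowest of the other 6 arrays had a median of -2.49 for S phase genes and of -4.55 for G2/M genes, against 0.44 for all features. Of these, 12 S phase and 17 G2/M genes were well above background on the low array, with gaps of -6.53 to -0.68 and of -5.70 to -3.29. With the other 5 genes held at the background of that array, the medians were the same, and the gap was below -4, or 16-fold, for 13 G2/M and 3 S phase genes, against 1.40% of all features. On the other 6 arrays the same genes were close together: the range was under 1 in 34 of 36 genes, against 69.7% of all features, and was 1.02 at most. Other lists were low on that array too: the gap had a median of -8.56 in the 3 injury genes, -5.38 in monocyte and macrophage, -4.17 in reactive astrocyte and -1.75 in endothelial markers. This contrast rests on 1 array and has no replicate.

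Among the G1 cyclins, Ccnd1, the cyclin D1 that partners Cdk4 and Cdk6, read 2.98, 3.55 and 3.24 on the knockout arrays, 0.68, 3.19 and 3.02 on the wild type day 3 arrays and 3.45 on the sham array. Its lowest array was 4.89-fold below the next, and the other 6 arrays overlapped. Ccne1, the cyclin E1 that partners Cdk2 at the start of S phase, read 0.88, 1.13 and 0.84 on the knockout arrays, 1.04, 1.14 and 1.05 on the wild type day 3 arrays and 1.07 on the sham array. It was the 1 measured gene of the set that was not lowest on wild type day 3 replicate 1.

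Of the S phase genes, the origin loader Cdc6 read -3.22, -3.42 and -3.74 on the knockout arrays, -7.45, -3.62 and -3.34 on the wild type day 3 arrays and -3.33 on the sham array. It was near background on wild type day 3 replicate 1, and there at least 13.1-fold below the lowest of the others. The helicase subunit gene Mcm2 read -0.05, 0.01 and -0.15 on the knockout arrays, -3.35, 0.16 and -0.10 on the wild type day 3 arrays and 0.02 on the sham array. Apart from the 1 low array, the genotypes overlapped for both genes. Mcm5, another subunit of the helicase, read 0.95, 0.87 and 0.77 on the knockout arrays, -1.83, 0.83 and 0.66 on the wild type day 3 arrays and 0.91 on the sham array. The other helicase genes were also lowest on wild type day 3 replicate 1. It was below the lowest other array by 16.8-fold for Mcm3, 9.29-fold for Mcm6, 3.21-fold for Mcm7 and 3.15-fold for Mcm4. Cdc45, which joins the helicase at firing, was lower there by 1.87-fold.

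Pcna, the sliding clamp of the replicative polymerases, read 3.59, 3.55 and 3.57 on the knockout arrays, 1.78, 3.51 and 3.48 on the wild type day 3 arrays and 3.60 on the sham array. It was the 1 gene of the set whose knockout arrays all lay above all wild type day 3 arrays, and the 2 wild type arrays nearest to them were lower than the lowest knockout array by less than 0.1. Rrm2, the regulated subunit of ribonucleotide reductase, read 2.41, 2.98 and 2.01 on the knockout arrays, -2.81, 2.76 and 2.63 on the wild type day 3 arrays and 2.89 on the sham array. Tk1, the thymidine kinase that salvages thymidine in S phase, read 1.24, 1.32 and 0.94 on the knockout arrays, -5.59, 1.45 and 1.23 on the wild type day 3 arrays and 1.37 on the sham array. The gap was 92.3-fold for Tk1 and 28.1-fold for Rrm2, the largest of the 12 S phase genes well above background on that array. Rrm1, the large subunit of the reductase, was lower on the array labelled wild type day 3 replicate 1 by 3.93-fold and Tyms, thymidylate synthase, by 1.60-fold.

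The G2/M genes had wider gaps. Mki67, which encodes the proliferation antigen Ki-67, read 2.46, 2.50 and 1.91 on the knockout arrays, -3.71, 2.55 and 2.52 on the wild type day 3 arrays and 2.73 on the sham array. Top2a, the topoisomerase that untangles sister chromosomes, read -0.03, -0.16 and -0.70 on the knockout arrays, -7.56, -0.22 and -0.11 on the wild type day 3 arrays and 0.01 on the sham array. The low array was 49.2-fold below the lowest other array for Mki67 and at least 116-fold below it for Top2a, which was not well above background there.

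The cyclins and their kinase were also lowest on wild type day 3 replicate 1. Cdk1, the kinase that drives entry into mitosis, read -0.17, 0.11 and -0.35 on the knockout arrays, -8.44, -0.07 and 0.07 on the wild type day 3 arrays and 0.13 on the sham array. Its gap was at least 183-fold, and the probe was not well above background on the low array. Ccna2, the cyclin A2 of S phase and G2, read 0.83, 0.82 and 0.22 on the knockout arrays, -3.33, 0.73 and 0.72 on the wild type day 3 arrays and 0.87 on the sham array. Ccnb1, the mitotic cyclin B1, read 0.72, 1.10 and 0.21 on the knockout arrays, -5.49, 0.95 and 0.99 on the wild type day 3 arrays and 1.21 on the sham array. Knockout replicate 3 was the lowest of the 6 other arrays for all 3 genes. Ccnb2, cyclin B2, was lower on the array labelled wild type day 3 replicate 1 by 16.0-fold.

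Genes of the mitotic kinases and of their partners also had their lowest value there. Birc5, which encodes survivin of the passenger complex, read 3.15, 3.28 and 2.67 on the knockout arrays, -2.48, 3.11 and 3.15 on the wild type day 3 arrays and 3.07 on the sham array, a gap of 35.6-fold. Plk1, polo-like kinase 1, read 1.92, 1.92 and 1.52 on the knockout arrays, -1.77, 2.04 and 2.10 on the wild type day 3 arrays and 2.03 on the sham array, a gap of 9.79-fold. Gaps of the other kinases were at least 60.2-fold for Bub1 and 11.9-fold for Bub1b, both of the spindle checkpoint, and 10.9-fold for Aurka, the centrosomal Aurora kinase. Of the genes for the anaphase-promoting complex, which ends mitosis by degrading cyclin B, its E2 enzyme Ube2c was lower by 51.3-fold and its activator Cdc20 by 19.2-fold.

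Spindle and kinetochore genes completed the class. Nusap1, which bundles spindle microtubules, read -0.42, -0.37 and -0.82 on the knockout arrays, -6.33, -0.61 and -0.67 on the wild type day 3 arrays and -0.34 on the sham array. Tpx2, which activates Aurora A on the spindle, read -0.49, -0.56 and -1.08 on the knockout arrays, -4.72, -0.78 and -0.76 on the wild type day 3 arrays and -0.57 on the sham array. The gaps were 45.3-fold for Nusap1 and 12.4-fold for Tpx2. Cenpf, a large kinetochore protein gene, read -6.74, -6.40 and -7.11 on the knockout arrays, -9.92, -7.07 and -6.94 on the wild type day 3 arrays and -6.08 on the sham array. It was dim, well above background on 5 of 7 arrays, and its gap of at least 1.69-fold is a bound set by the background. The midzone genes Prc1, Kif23 and Kif20a were lower by 37.3-fold, 25.3-fold and 23.5-fold, and the spindle motor Kif11 and the kinetochore motor Cenpe by 10.7-fold and 10.3-fold.

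For the G2/M and the S phase class, the promoters of the 2 genes with the lowest reading of the gap are shown. For Cdk1 and Top2a that reading is at the background. Whether promoter letters bear on the gaps was not tested. Windows of 300 bases around the transcription start were taken from RefSeq (GRCm38.p6), which held 31 of the 38 genes: 18 G2/M genes, 12 S phase genes and 1 G1 cyclin. Motifs were searched on both strands, and capitals mark every match. The CHR element was read as TTTGAA or else as TTTAAA, and the CCAAT box by its own letters. An E2F site was read as TTGGCGC or as TTCCCGC, and likewise as TTGCCGC or as TTCGCGC. A match on the other strand appears as its reverse complement, so ATTGG is a CCAAT match. TTTAAA reads the same on both strands and was counted once, and the first E2F form can share bases with a CCAAT match read as ATTGG. The sequences run 5′ to 3′ along the gene.
Cdk1 (chr10:69352863-69353162, minus strand): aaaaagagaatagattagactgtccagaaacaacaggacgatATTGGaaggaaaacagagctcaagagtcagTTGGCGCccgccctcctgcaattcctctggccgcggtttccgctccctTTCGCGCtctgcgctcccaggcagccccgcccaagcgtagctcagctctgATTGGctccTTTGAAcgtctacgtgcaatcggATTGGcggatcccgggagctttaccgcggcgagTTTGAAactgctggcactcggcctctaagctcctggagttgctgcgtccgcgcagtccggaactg
Top2a (chr11:99024140-99024439, minus strand): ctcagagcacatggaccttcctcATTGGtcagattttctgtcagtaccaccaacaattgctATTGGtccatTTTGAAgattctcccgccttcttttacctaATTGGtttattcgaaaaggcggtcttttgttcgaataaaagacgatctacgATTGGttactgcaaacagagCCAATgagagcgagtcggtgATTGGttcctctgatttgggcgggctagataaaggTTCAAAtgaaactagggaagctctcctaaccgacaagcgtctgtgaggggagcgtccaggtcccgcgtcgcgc
Tk1 (chr11:117825965-117826264, minus strand): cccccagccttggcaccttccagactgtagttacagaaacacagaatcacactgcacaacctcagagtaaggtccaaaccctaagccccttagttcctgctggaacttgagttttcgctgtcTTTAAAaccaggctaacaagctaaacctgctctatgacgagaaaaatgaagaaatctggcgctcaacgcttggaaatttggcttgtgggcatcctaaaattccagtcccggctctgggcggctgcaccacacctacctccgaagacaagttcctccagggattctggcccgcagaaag
Rrm2 (chr12:24708004-24708303, plus strand): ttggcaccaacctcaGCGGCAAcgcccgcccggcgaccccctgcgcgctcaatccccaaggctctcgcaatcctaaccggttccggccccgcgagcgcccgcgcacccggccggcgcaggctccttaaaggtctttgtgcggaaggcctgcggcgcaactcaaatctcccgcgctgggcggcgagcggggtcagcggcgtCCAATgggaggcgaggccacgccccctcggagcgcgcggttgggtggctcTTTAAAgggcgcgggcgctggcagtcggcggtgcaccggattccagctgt

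In the Cdk1 window, both CHR matches lay between bases -71 and -10 relative to the start, the 3 CCAAT matches between -208 and -44 and the 2 E2F matches between -178 and -124. In the Top2a window, 6 CCAAT matches lay between -227 and -54, with CHR matches at -179 and -23. The Tk1 window held 1 CHR match at -128 and no match to the other motifs, and the Rrm2 window held 1 match to each. Over the 18 G2/M genes with a window, 16 (88.9%) had a CHR match, against 5 of 12 S phase genes (41.7%) and 27.8% of the 27025 genes with a window. A CHR and a CCAAT match together were in 15 G2/M genes (83.3%), 4 S phase genes (33.3%) and 10.9% of all genes. The E2F letters went the other way, with 3 G2/M genes (16.7%), 7 S phase genes (58.3%) and 9.69% of all genes. These are descriptions of the letters in the window; binding was not measured, and no test was made.

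For knockout against wild type on day 3, the tested comparison, 35 of 36 genes had a higher mean in the knockout arrays, where 46.9% of all 23300 features did. The difference had a median of 0.97 in the 13 S phase genes (0.21 to 2.14) and of 1.53 in the 21 G2/M genes (1.00 to 2.68), and of -0.03 over all features. At least 2-fold higher means were found for 6 S phase and 20 G2/M genes, 26 of 36 in all, against 4.64% of features. None of these differences passed the test. In limma, 0 of 23300 features passed an adjusted p of 0.05 (0%), 196 (0.841%) had an unadjusted p below 0.05, and none of the 36 genes was among those. The smallest adjusted p among the 36 was 0.862.

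The size of the error shows in single genes. Cdk1 averaged -0.14 ± 0.23 in the knockout arrays and -2.81 ± 4.87 in the wild type day 3 arrays (SD, n = 3 each), and the difference was 2.68 with a standard error of 2.37. Tk1 differed by 2.14 with a standard error of 1.95, Mki67 by 1.84 with 1.76 and Ccnd1 by 0.95 with 0.71. The smallest unadjusted p of an S phase gene was that of Mcm5 (0.24, difference 0.97 with a standard error of 0.74), followed by Pcna and Cdc6. In G2/M it was that of Cenpf (0.20, difference 1.23 with a standard error of 0.85), followed by Nusap1 and Tpx2. Cdk1, Cdc6 and Cenpf were not well above background on wild type day 3 replicate 1. Their differences and p-values therefore rest on a reading at the background there. Groups did not overlap for 1 of 36 genes in the higher direction, against 1.88% of features, and for 0 in the lower direction, against 2.65%. Left out in turn, knockout replicate 3 raised the first count to 13, against 4.11% of features. Without knockout replicate 1 it was 2, against 3.18%, and without wild type day 3 replicate 2 also 2, against 4.39%. Without knockout replicate 2 the second count was 1, against 12.9%. With 3 arrays a side, an exact permutation test cannot go below 0.1.

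**Figure D2:**
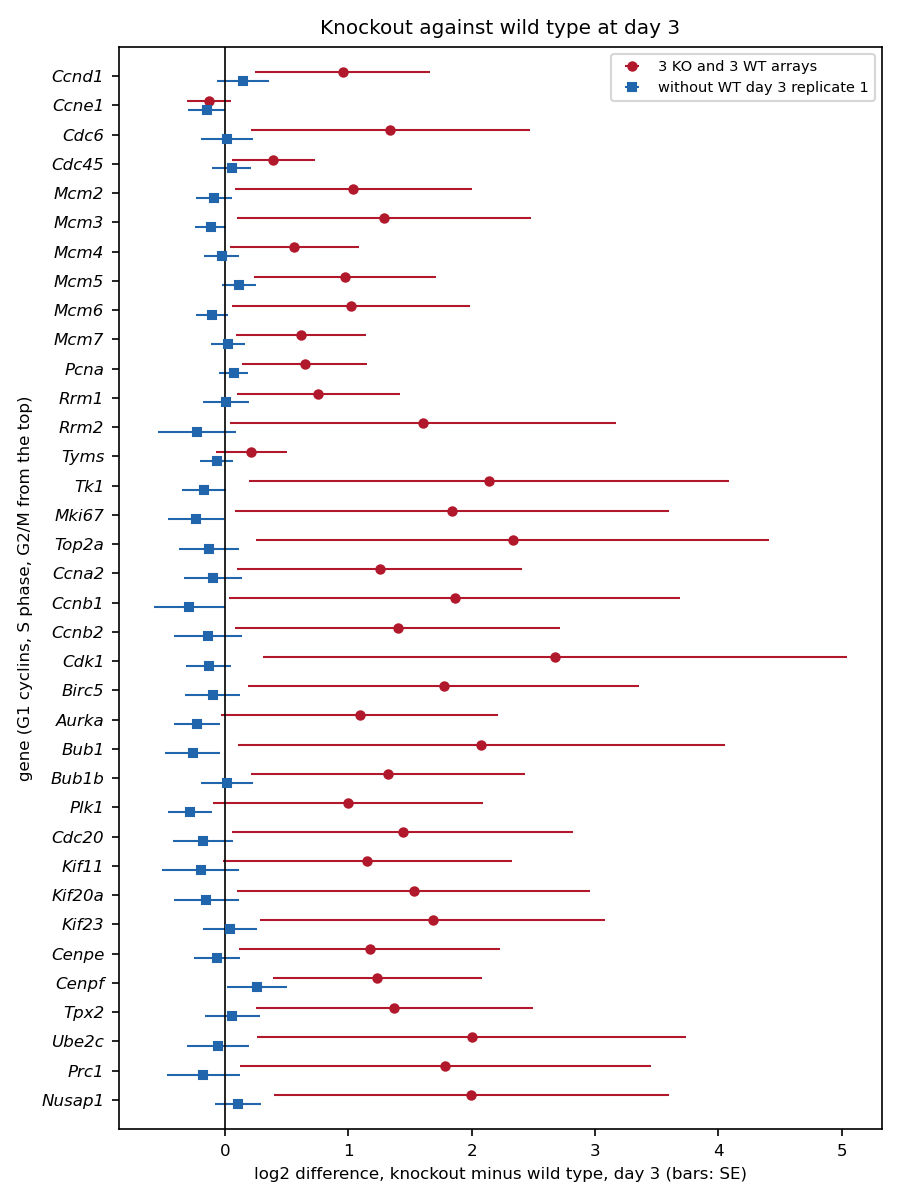
Log2 difference (knockout minus wild type on day 3) for each of the 36 genes, with bars of 1 standard error from limma. With all 6 day 3 arrays (red circles) 35 genes lie right of 0 with wide bars, and with wild type day 3 replicate 1 left out (blue squares) the 36 genes lie between -0.29 and 0.26.

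The difference was not seen once wild type day 3 replicate 1 was left out. Then 12 of 36 genes had a higher mean in the knockout arrays, against 50.3% of features, and the median difference was -0.03 in S phase genes (6 of 13 higher, -0.23 to 0.12) and -0.13 in G2/M genes (5 of 21 higher, -0.29 to 0.26), with 0.00 over all features. Cdk1 differed by -0.13 with a standard error of 0.18, Mki67 by -0.24 with 0.23, Tk1 by -0.17 with 0.18 and Mcm5 by 0.12 with 0.14. In limma 0 features passed the adjusted threshold (0%), 379 (1.63%) had an unadjusted p below 0.05 and none of the 36 genes was among them. The 3 knockout arrays lay on the lower side of both remaining wild type arrays for 4 genes, against 5.33% of features, and on the upper side for 1, against 6.31%. Those 4 were Mcm3 of the S phase genes and Mki67, Aurka and Plk1 of the G2/M genes, and the 1 was Pcna. For the second probe of Mcm3 and the second probe of Mki67 the same 5 arrays overlapped, so the separation of these 2 genes rested on the probe used.

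Among the 6 remaining arrays, knockout replicate 3 was the lowest for most genes of both classes. It was the lowest of the 6 for 21 of 21 G2/M genes and for 8 of 13 S phase genes, against 20.6% of all features. It was below the mean of the other 2 knockout arrays by a median difference of -0.55 in G2/M genes and of -0.14 in S phase genes, and the median over all features was 0.00. The difference between the classes was not tested. Wild type day 3 replicates 2 and 3 differed by a median of 0.06 in G2/M genes, 0.13 in S phase genes and 0.15 over all features, regardless of sign. On knockout replicate 3 the median of the 5 monocyte and macrophage markers was 2.11, against 2.22 and 2.38 on the other knockout arrays, and that of the 6 neuron markers was 0.44, against 0.50 and 2.75. The markers did not all go one way: Cd68 and Msr1, of the macrophage list, read 5.53 and 1.13 on knockout replicate 3, the highest of the 3, the injury genes had a median of 5.65, against 5.38 and 4.84, and pericyte and fibroblast markers of 2.58, against 2.48 and 1.89. The part of these cells in the order of the arrays was not tested.

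**Figure D3:**
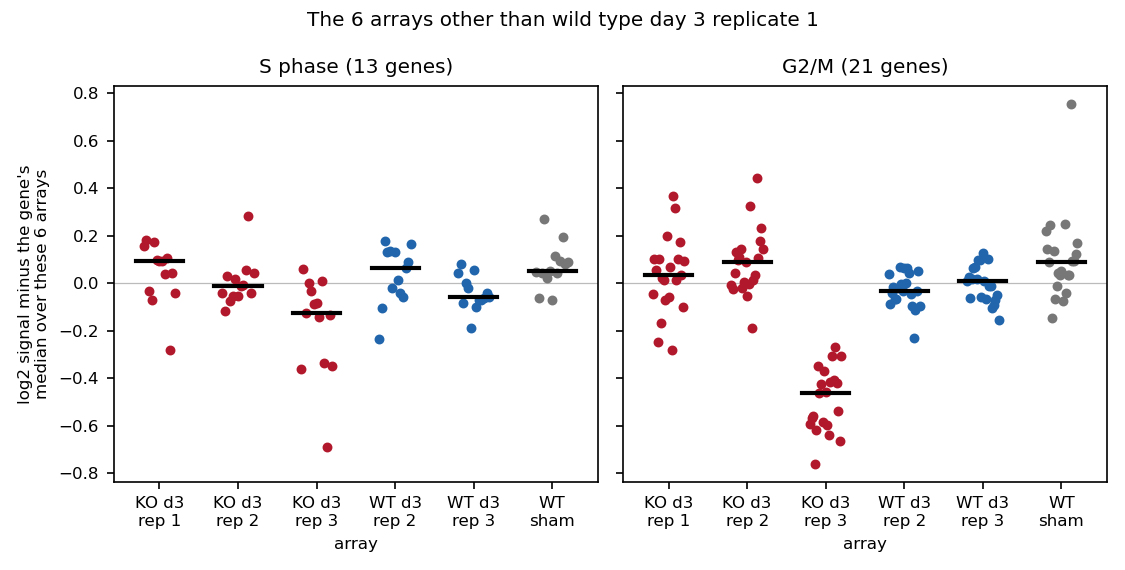
Each point is 1 gene on 1 array, as log2 signal minus the median of that gene over the 6 arrays other than wild type day 3 replicate 1, with a black line at the median of the points. The G2/M genes of knockout replicate 3 lie below 0 as a group (right panel), and the same array is the lowest for 8 of 13 S phase genes (left panel).

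The comparisons with the sham array share that 1 array, so the values are set side by side and no spread of the sham group was measured. In wild type day 3 against sham, 1 of 36 genes had a higher mean, against 54.1% of features, with medians of -0.97 in S phase and -1.71 in G2/M genes and of 0.03 over all features. The 3 wild type arrays were all below the sham array for 22 of 36 genes, against 11.1% of features. In knockout day 3 against sham, 4 of 36 genes had a higher mean (Cdc45, Mcm4, Mcm6 and Ccnb2), against 50.4% of features, with medians of -0.13 in S phase, -0.20 in G2/M and 0.00 over all features. The 3 knockout arrays were all below the sham array for 15 of 36 genes, 6 of S phase and 9 of G2/M, against 25.8% of features. Without knockout replicate 3 the medians against sham were -0.03 in S phase and -0.04 in G2/M genes. In each comparison limma passed 3 of 23289 features (0.0129%), none of them among the 36 genes.

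Leaving out wild type day 3 replicate 1 brought wild type day 3 close to sham as well. The medians were then -0.10 in S phase genes and -0.12 in G2/M genes, and 12 of 36 genes were higher, against 50.8% of features. Both remaining wild type arrays were below the sham array for 22 of 36 genes, against 40.3% of features. In limma 6 features passed (0.0258%), none of them among the 36 genes. Cenpf was the 1 gene of the set with an unadjusted p below 0.05 (0.0387, limma), where 4.52% of features had one, with a difference of -0.92 and an adjusted p of 0.768. On the array labelled sham, 10 of the 36 genes were above all of the other 5 arrays (3 of S phase and 7 of G2/M) and 0 were below them, where 21.8% of features were above and 24.9% below. For the other 26 genes it lay among those 5 arrays.

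Other genes of the pathway, listed by role and not for how they moved, had the same pattern in part. In knockout against wild type day 3, the difference had a median of 1.04 in 13 further replication genes (12 higher), 0.71 in 7 inhibitors of cyclin-dependent kinases (5 higher), 0.65 in 5 other G1 cyclins and kinases (4 higher), 0.53 in 8 phosphatases, Wee kinases and regulators of the anaphase-promoting complex (6 higher), 0.26 in 6 genes of B-Myb, MuvB and FoxM1 (4 higher) and 0.23 in 12 retinoblastoma and E2F genes (9 higher). None of the 51 had an unadjusted p below 0.05, where 0.841% of features had one. Without wild type day 3 replicate 1 the medians, in that order, were -0.09 (4 higher), -0.06 (3 higher), -0.09 (1 higher), -0.10 (1 higher), -0.07 (2 higher) and -0.01 (6 higher). Over all features the median was then 0.00, with 50.3% higher. On wild type day 3 replicate 1, 12 of the 13 replication genes were below all other arrays, against 34.4% of features. Of the 12 retinoblastoma and E2F genes, 9 were below all others there and 3 were above them, where 43.9% of features were above.

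By the smallest p in each list, 2 genes are given. Rbl1, the retinoblastoma relative p107, differed by 1.09 and E2f2, an activating E2F, by 1.50 between knockout and wild type, both with an unadjusted p of 0.20 in limma. E2f2 read 0.63, 0.70 and 0.37 on the knockout arrays, -3.36, 0.40 and 0.16 on the wild type day 3 arrays and 0.52 on the sham array. Lin52 and Lin9, subunits of MuvB, differed by -0.25 and 0.40. Of these, Lin52 was highest on the array labelled wild type day 3 replicate 1, at 0.07, against -0.63 to -0.32 on the other 6. The inhibitors Cdkn2b and Cdkn1a, the second of them the p53 target p21, differed by 0.71 and 1.00, Cdk6 and Ccnd2, a G1 kinase and a D-type cyclin, by 1.37 and -0.39, Pkmyt1 and Cdc25c, which set and remove the brake on Cdk1, by 0.54 and 1.35, and Orc2 and Gins2, of the origin complex and the helicase, by 0.29 and 1.04. Without wild type day 3 replicate 1, all 12 of these differences lay between -0.11 and 0.28.

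**Figure D4:**
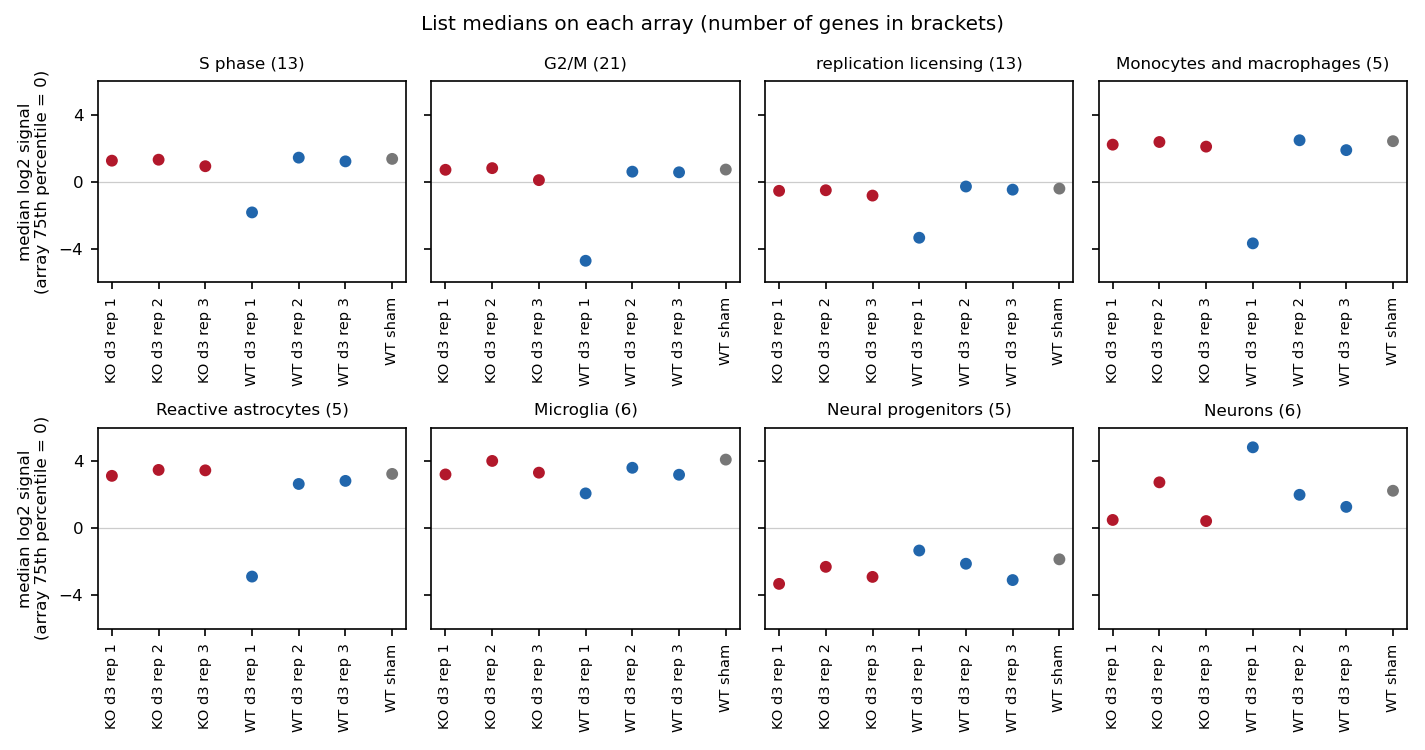
Median log2 signal per array (75th percentile of the array at 0) of 8 gene lists, with knockout day 3 in red, wild type day 3 in blue and sham in grey, and the number of genes in brackets. The array labelled wild type day 3 replicate 1 is lowest for S phase, G2/M, replication licensing, macrophage, astrocyte and microglia genes and highest for neural progenitor and neuron genes.

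Many, but not all, markers of the cells that the tissue could hold were also lowest on the low array. On wild type day 3 replicate 1, the median was -3.68 for 5 monocyte and macrophage markers, against 1.90 to 2.49 on the other 6 arrays. There 4 of the 5 were below all others, as were 34.4% of all features. Itgam went the other way, at 3.89 against 2.07 to 2.65, where 43.9% of features were highest on that array. The 5 reactive astrocyte markers had a median of -2.88 there, against 2.65 to 3.49, and all 5 were lowest. For microglia the median was 2.09, against 3.21 to 4.11, with 5 of 6 markers lowest and P2ry12 highest (0.14, against -1.03 to -0.36). Endothelial markers (4 of 4 lowest, median -0.97 against 1.27 to 2.36) and pericyte and fibroblast markers (4 of 4 lowest, median -0.48 against 1.61 to 2.84) were lower as well.

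Markers of neurons ran the other way, with all 6 highest on wild type day 3 replicate 1 and a median of 4.85, against 0.44 to 2.75 on the other arrays, where 43.9% of all features were highest on it. Neuron markers define the labelled tissue, and they were well above background on all 7 arrays. The oligodendrocyte precursor markers had a median of -0.42 there, against 0.51 to 1.05, with 2 of 4 lowest. The 5 neural progenitor markers were divided: their median was -1.32, against -3.32 to -1.85, and Nes, an intermediate filament gene also made by reactive astrocytes and endothelium, read -1.14 there, against 2.44 to 3.46. The 3 lymphocyte markers that were measured had a median of -5.52, against -5.72 to -5.10. The part of each cell type in the level of the cell cycle genes was not tested.

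The agreement of separate probes was read from the 10 genes that had several. The 38 genes had 51 probes, and 49 of these, from 37 genes, had their lowest value on wild type day 3 replicate 1. For Mki67 a second probe gave a gap of -6.31, beside -5.62 for the probe used. The size of the gap was not always shared by the probes of a gene. For Tpx2 the second probe, well above background on all 7 arrays, gave -0.60, beside -3.63 for the probe used. For Cdk1 the probe used read -8.44 on wild type day 3 replicate 1 and the other probes -7.79 and -10.10. The lowest signal well above background on that array was -7.86. Each probe exceeded background clearly on 6 arrays. The other probes were dim, at -6.39 and -6.36 on their lowest other array, knockout replicate 3. The raw gaps of -8.09 for the probe used and -1.40 and -3.74 for the others therefore rest on readings near or below background. Those gaps cannot show whether the Cdk1 probes share a size. For Mcm3 the 2 probes overlap and differ by 1 base, A14G, counted from the start of the downstream probe with the base of the upstream probe first. The stretch is shown because both versions were lowest on wild type day 3 replicate 1, with gaps of -4.07 and -4.14, and highest on the sham array.
Mcm3 upstream probe: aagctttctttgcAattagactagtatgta
Mcm3 downstream probe: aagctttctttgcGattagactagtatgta

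Probe placement limits a few values. On mm9, the build of the array design, 32 of the 36 probes used lay on the chromosome of their RefSeq gene, 1 had no position, and 3 were placed elsewhere: Mcm7 on chromosome 16 (gene on 5), Pcna on 19 (gene on 2) and Rrm2 on 19 (gene on 12). Values of these 3 genes are uncertain to that extent, since a probe may read a near-identical copy. Their gaps on wild type day 3 replicate 1, -1.68, -1.71 and -4.81, lay within the range of the other S phase genes. That range, -6.53 to -0.68, is too wide to show which copy was read.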

How the data were processed

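RNA of 7 mouse brain samples was hybridised in 1 colour to 7 Agilent arrays of 60-base probes. The deposited spot intensities came from the scanner software (Agilent Feature Extraction 11.5.1.1, as the submitters' processing notes say). Background and trends within the array had been removed from the processed intensity, per the file headers. The deposited value table is a ratio on a linear scale. It was matched here by the processed signal over the 75th percentile of its array (within 0.0428% at most, column medians 0.0863 to 0.0976), and served as an alternative.

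Log2 of the processed signal was centred by subtracting the 75th percentile of the array (spots other than controls), with no pseudocount. Spots with an outlier flag were left out, spots of a probe averaged, and the brightest probe was kept per gene, among those clearly above background in 3 or more of the 7 arrays. An "at least" fold takes, on the dim array, the higher of the lowest signal well above background and the probe's own signal. All 23300 features were fitted in limma 3.58.1 (R 4.3.3, lmFit and eBayes, 3 groups, 4 residual and 1.68 prior degrees of freedom, two-sided, Benjamini-Hochberg, threshold 0.05). In knockout against wild type, simulated data that varied like the arrays other than wild type day 3 replicate 1 (23280 features, 200 changed) gave 37.5%, 75% and 89% recovery of log2 changes of 1, 2 and 4. This recovery does not hold for the fit with all 7 arrays, whose spread includes that array. The standard error of Cdk1 was 2.37 in that fit and 0.18 without the array. Plots used Python 3.11.15 and matplotlib 3.10.9.

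The members, gene lists and tests were chosen with earlier results of these data known. By rule, values on every array are given for 16 listed members and the 3 with the smallest p in each class, and 2 genes per further list are named. Mcm3 and Aurka, the 4 genes above sham, Nes, Itgam and P2ry12 were named after their values were seen. Alternatives covered background correction, normalization, filters, probe choice, arrays left out, array weights and a replicate block.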

Additional observations from a re-analysis of the deposited data

How the results depend on the processing

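The median difference of knockout from wild type day 3 was 0.71 to 0.97 in S phase and 1.23 to 1.56 in G2/M genes, with 0 features passing, under normexp, quantile normalization, the deposited table, other filters and averaged probes, and no member passed the adjusted threshold in any setting. With each array left out in turn the medians ran from -0.03 to 1.45 and from -0.13 to 2.38, the lowest without wild type day 3 replicate 1 and the highest without replicate 2 or 3 of that group. With array weights, which gave that array a weight of 0.0548, 2 features passed for knockout against wild type (1650 at an unadjusted p below 0.05, no member) and 5 of 36 members were higher. Without that array, and the same with the sham array also left out, the differences turned to -0.24 (Mki67), -0.13 (Top2a), -0.10 (Ccna2), -0.29 (Ccnb1), -0.13 (Cdk1), -0.10 (Birc5), -0.29 (Plk1), -0.090 (Mcm2), -0.23 (Rrm2) and -0.17 (Tk1). With array weights they were -0.40, -0.30, -0.29, -0.53, -0.21, -0.27, -0.41, -0.092, -0.47 and -0.23 in that order, and Cdc6, Nusap1 and Tpx2 turned to -0.12, -0.0080 and -0.11. When arrays were left out in turn, those 10 differences ran up to 2.89, 3.59, 1.93, 2.95, 4.12, 2.72, 1.65, 1.67, 2.55 and 3.35 in that order, from the low values above. Members without overlap between the groups numbered 0 in the higher direction after quantile normalization. With arrays left out in turn they numbered 1 to 13, where 3.18% to 15.7% of features had no overlap in that direction. The 13 were found without knockout replicate 3 (4.11% of features). In the lower direction members without overlap numbered 0 to 4, with 4 without wild type day 3 replicate 1 (5.33% of features, and the same with the sham array also out). For wild type day 3 against sham and for knockout against sham, 0 features passed with normexp, with quantile normalization and with probes well above background on all 7 arrays. Leaving arrays out gave 0 to 6 and 0 to 8 features, the upper values without wild type day 3 replicate 1, and array weights gave 7 and 10. On slide 1 alone, wild type against sham passed 0. Knockout against wild type could not be fitted with slide as a term. With replicate number as a block, 0 features passed (148 at an unadjusted p below 0.05). Same-numbered arrays deviated from their group means with correlations of -0.38, -0.56 and 0.35. The low array shifts the wild type mean, so these correlations cannot show whether the numbers pair the samples.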
